A study of Mus musculus with 8 samples.

Results

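Peaks of open chromatin at olfactory receptor genes were examined in neurons of the mouse amygdala. A peak belonged to this set when its summit lay inside, or within 5 kb of, a gene on chromosomes 1 to 19 whose RefSeq symbol starts with Olfr. In the 8 peak lists, 4027 of 647290 peaks on these chromosomes met the rule, or 0.622%. They were counted at 1419 Olfr genes, of which 1103 were listed as protein-coding and 316 as pseudogenes or other types. With their 5 kb margins the genes covered 15.2 Mb, or 0.632% of the 2399 Mb that lay between the first and last peak of each chromosome. The deposited lists reach down to a −log10 p of 2.00, and only 4.80% to 18.6% of the peaks in a library had a q under 0.05.

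The libraries were ATAC-seq, in which the transposase Tn5 cuts accessible chromatin, made from nuclei of neurons that had been isolated with a magnetic kit. All 8 came from brains of male C57BL/6J mice that carried an AAV guide in the amygdala, expressed for more than 2 weeks, and that then had 7 days of restraint in a tube, 1 of fear conditioning and 3 days of extinction training. The guide was directed at the Rosa26 locus in the control group (sgRosa, n = 4) and at Nr2f2 in the knockdown group (sgNr2f2, n = 4), so the controls carried a virus and were stressed too. Nr2f2 encodes COUP-TFII, an orphan nuclear receptor that binds DNA, and the comparison asks where chromatin accessibility differs when it is knocked down. The labels give the guides as targeted to neurons but give neither the promoter that drives them, the source of the nuclease nor the age of the mice.

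Olfactory receptors are G protein-coupled receptors that detect odorants in the nose. Each olfactory sensory neuron expresses a single receptor allele, chosen while the other genes of the family, which lie in tandem clusters on many chromosomes, are kept silent in heterochromatin. Class I receptors, an older branch, sit in a single cluster on chromosome 7 that also holds the beta-globin genes, and class II receptors occupy the other clusters. Outside the nose most members are regarded as silent, which makes these clusters long, gene-rich stretches of the genome with little expected activity.

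At the start sites themselves, peaks were few and seldom recurred. RefSeq promoters of GRCm38.p6, the assembly of mm10, taken from 250 bases before to 50 bases after the start, were matched by symbol for 938 Olfr genes (942 promoters). In the full lists a peak overlapped 128 of them (13.6%), against 18.3% of the 30454 other promoters, and 8 (0.849%) were overlapped in at least 2 libraries, against 3.07% of the others. None was overlapped in all 8 libraries, as were 6 of the 30454 others (0.0197%), a share too low for this absence to mean much. Olfr473 was overlapped in 3 libraries (sgRosa 4, sgNr2f2 2 and sgNr2f2 3), and Olfr1358, Olfr744, Olfr1500, Olfr352, Olfr1056, Olfr601 and Olfr688 were overlapped in 2 libraries each. Shown 5′ to 3′ are the most recurrent of them and the 2 among the 8 whose covered bases held a motif searched below. Capitals mark the bases that lay inside a peak of any library. Olfr473 lies at chr7:107933272-107933571 on the plus strand, Olfr688 at chr7:105287845-105288144 on the plus strand and Olfr352 at chr2:36869318-36869617 on the plus strand.
Olfr473: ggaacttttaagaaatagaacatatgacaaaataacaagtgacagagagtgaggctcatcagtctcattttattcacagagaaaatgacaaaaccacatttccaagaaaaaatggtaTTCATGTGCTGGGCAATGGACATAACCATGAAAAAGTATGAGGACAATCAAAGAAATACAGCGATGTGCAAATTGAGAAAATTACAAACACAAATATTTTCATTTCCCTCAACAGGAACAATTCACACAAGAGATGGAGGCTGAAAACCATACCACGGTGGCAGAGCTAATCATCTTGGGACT
Olfr688: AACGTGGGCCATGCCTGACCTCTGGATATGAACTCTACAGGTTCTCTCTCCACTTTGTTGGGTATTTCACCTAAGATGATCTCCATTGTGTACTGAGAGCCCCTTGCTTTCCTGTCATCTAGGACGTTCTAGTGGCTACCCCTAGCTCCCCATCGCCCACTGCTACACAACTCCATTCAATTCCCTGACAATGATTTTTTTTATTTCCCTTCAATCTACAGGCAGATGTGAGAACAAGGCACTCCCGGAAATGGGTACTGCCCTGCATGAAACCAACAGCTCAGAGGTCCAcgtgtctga
Olfr352: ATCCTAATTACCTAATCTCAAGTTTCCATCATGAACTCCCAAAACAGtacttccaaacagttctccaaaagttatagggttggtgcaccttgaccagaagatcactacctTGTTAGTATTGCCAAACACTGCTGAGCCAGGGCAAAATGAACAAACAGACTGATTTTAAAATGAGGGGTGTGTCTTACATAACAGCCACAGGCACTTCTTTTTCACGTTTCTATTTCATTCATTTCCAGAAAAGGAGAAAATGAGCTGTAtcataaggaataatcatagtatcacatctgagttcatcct

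The peaks covered 183 of the 300 bases shown for Olfr473, 291 for Olfr688 and 197 for Olfr352. Of the 8 recurrent promoters, 6 were overlapped in at least 1 library of each group, while those of Olfr744 and Olfr1056 were overlapped in 2 sgRosa libraries and in no sgNr2f2 library. No promoter of this family was overlapped in more than 3 libraries.

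Olfr promoters were AT-rich, with a mean GC content of 36.1% against 54.0% over all 31396 promoters of chromosomes 1 to 19. Motifs were searched on both strands by their letters. TAATTA, the core bound by homeodomain factors such as Lhx2, was in 18.7% of Olfr promoters and 5.27% of all promoters. CCCNNGGG, the core bound by Ebf factors, was in 3.08% and 13.9%, and AGGTCA, the core of many nuclear receptor sites, in 13.0% and 16.3%. AGGTCA was in 25 of the 128 overlapped Olfr promoters (19.5%) and in 97 of the 814 others (11.9%), a description with no test, while TAATTA was as frequent in overlapped promoters (18.8%) as in the others (18.7%). These shares describe letters in a 300-base window and not binding.

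Promoters from a chromosome 9 cluster in which every sgNr2f2 library had fewer peaks than every sgRosa library are shown for comparison. Olfr845 and Olfr869 each had a peak within 5 kb in all 4 sgRosa libraries and in no sgNr2f2 library, but none overlapped either promoter. Capitals mark TAATTA, which occurs 4 times in the first and 2 times in the second. Among the other genes with that pattern of peaks and a matched promoter, the promoter of Olfr478 holds it 1 time and that of Olfr27 holds it 0 times. Olfr845 lies at chr9:19338209-19338508 and Olfr869 at chr9:20128870-20129169, both on the plus strand.
Olfr845: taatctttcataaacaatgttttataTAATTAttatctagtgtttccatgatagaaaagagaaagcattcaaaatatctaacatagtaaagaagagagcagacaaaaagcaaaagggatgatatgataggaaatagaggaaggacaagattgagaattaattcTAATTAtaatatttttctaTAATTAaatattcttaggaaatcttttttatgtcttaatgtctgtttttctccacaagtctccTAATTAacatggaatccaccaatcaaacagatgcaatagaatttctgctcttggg
Olfr869: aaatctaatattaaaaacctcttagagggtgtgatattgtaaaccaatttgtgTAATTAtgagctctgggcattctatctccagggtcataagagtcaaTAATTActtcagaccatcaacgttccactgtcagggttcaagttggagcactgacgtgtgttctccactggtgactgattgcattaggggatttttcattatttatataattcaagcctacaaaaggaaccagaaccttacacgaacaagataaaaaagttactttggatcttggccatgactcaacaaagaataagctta

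Over all libraries the family was neither richer nor poorer in peaks than the rest of the genome by a margin beyond the spread. The lists differed in length, from 53799 peaks in sgNr2f2 4 to 142509 in sgRosa 4, so that the strongest 53799 peaks of each library by the deposited −log10 p were compared. At Olfr genes the 4 sgRosa libraries then held 443, 378, 287 and 364, and the 4 sgNr2f2 libraries 293, 336, 214 and 308, each in the order of their numbers. As a density, Olfr genes with their margins carried 21.6 ± 4.55 peaks per Mb (SD, n = 8) and the rest of chromosomes 1 to 19 carried 22.4 ± 0.0290. The SD of the rest is small because every list was cut to the same length, so it does not measure a spread between libraries. The ratio of the 2 densities was 1.30, 1.112, 0.843 and 1.07 in sgRosa libraries and 0.861, 0.988, 0.628 and 0.905 in sgNr2f2 libraries. It was below 1 in 5 of 8 libraries (mean 0.964 ± 0.204, two-sided exact sign-flip test over libraries, p = 0.523, p = 0.555 adjusted over 7 such contrasts).

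**Figure D1:**
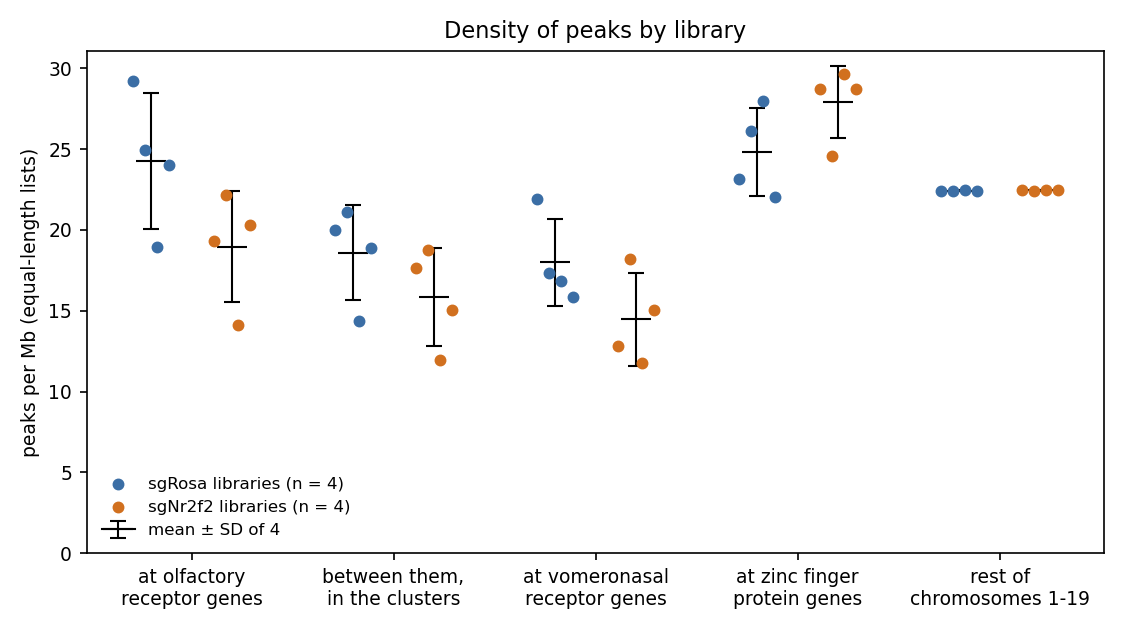
Peaks per Mb (y axis, from 0) at olfactory receptor genes, between them within their clusters, at vomeronasal receptor genes, at zinc finger protein genes and in the rest of chromosomes 1 to 19, for each library (points) with the mean and SD of each group of 4 (bars). Olfr genes lay near the level of the rest, 22.4, and above vomeronasal receptor genes, with the sgNr2f2 mean below the sgRosa mean at both receptor families and between the Olfr genes.

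Other large gene families gave a scale. Vomeronasal receptor genes (Vmn1r and Vmn2r, 616 genes), which encode pheromone receptors, are also clustered and silent outside their own sensory neurons, while the Zfp genes (409 genes) encode zinc finger proteins, many of them widely expressed. Olfr genes carried more peaks per Mb than vomeronasal receptor genes in 8 of 8 libraries, by 5.39 ± 2.37 (SD) over 16.2 peaks per Mb (exact sign-flip p = 0.00781, adjusted p = 0.0273). They carried fewer than Zfp genes, at 26.4 peaks per Mb, in 6 of 8 libraries, a difference of -4.75 ± 7.05 within the spread (exact p = 0.0859, adjusted p = 0.201). The excess over vomeronasal receptor genes depended on the peaks counted: with the strongest 26899 peaks per library it was 1.78 peaks per Mb (exact sign-flip test, adjusted p = 0.0729), and among peaks with a q under 0.05 the sign turned (-0.524 peaks per Mb, adjusted p = 0.208). Shorter lists lower all densities, so the sizes of these differences are not on the scale of the main value.

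Within the clusters, peaks were denser at the genes than in the DNA between them. Between the genes, beyond the 5 kb margins, the density was 17.2 ± 3.12 peaks per Mb (SD, n = 8), lower than at the genes in 8 of 8 libraries by 4.40 ± 2.33 (exact sign-flip p = 0.00781, adjusted p = 0.0273). Among the strongest 26899 peaks per library it was lower by 2.16 (exact sign-flip test, adjusted p = 0.0547), in a shorter list that lowers all densities. Inside the gene bodies there were 27.3 ± 6.17 peaks per Mb, and in the 5 kb on either side 20.5 ± 4.69, so that the bodies were denser in 7 of 8 libraries (difference 6.80 ± 5.37, exact sign-flip p = 0.0156, outside the 7 adjusted contrasts). Protein-coding Olfr genes carried 21.5 ± 4.66 peaks per Mb and pseudogenes 22.4 ± 5.53. The class I cluster, at 20.3 ± 5.25, and the class II clusters, at 21.8 ± 4.58, differed by less than the spread (exact sign-flip p = 0.227, adjusted p = 0.317).

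Peaks at Olfr genes were of middling strength in their own libraries. Their median percentile by −log10 p was 49.7, 46.3, 52.6 and 27.3 in sgRosa libraries 1 to 4 and 54.9, 35.1, 49.2 and 42.4 in sgNr2f2 libraries 1 to 4, where 50 is the library's own middle (mean 44.7 ± 9.37, exact sign-flip p = 0.164, adjusted p = 0.287). The lowest value belonged to sgRosa 4, the library with the longest list. Peaks at Olfr genes with a q under 0.05 numbered from 20 of 378 (sgRosa 2) to 106 of 443 (sgRosa 1). Their median width was 166 bp at the narrowest, in sgNr2f2 4, and 184 bp at the widest, in sgRosa 4, where the library's other peaks had medians of 166 bp and 180 bp.

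Few positions recurred. Joined over the 8 equal-length lists, peaks at Olfr genes formed 2473 regions, of which 2333 (94.3%) were found in 1 library, 130 in 2, 9 in 3 and 1 in 4. Other regions were found in 1 library in 94.9% of cases and in at least 2 in 5.13%, against 5.66% at Olfr genes. No region at an Olfr gene was in 5 or more lists, whereas 223 regions elsewhere (0.0554%) were in all 8. At so low a share, an absence among 2473 regions says little about the family. The share of a library's Olfr peaks found again in another library was 11.96%, 11.6%, 10.8% and 9.62% in sgRosa libraries and 15.4%, 7.44%, 12.6% and 9.74% in sgNr2f2 libraries, on average 0.448 percentage points above that of its other peaks (exact sign-flip p = 0.555, adjusted p = 0.555). The direction changed with the peaks counted. In the full lists the Olfr peaks were found again more often, by 2.39 percentage points (exact sign-flip test, adjusted p = 0.0365), and among peaks with a q under 0.05 less often (-5.86 percentage points, adjusted p = 0.0182).

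**Figure D2:**
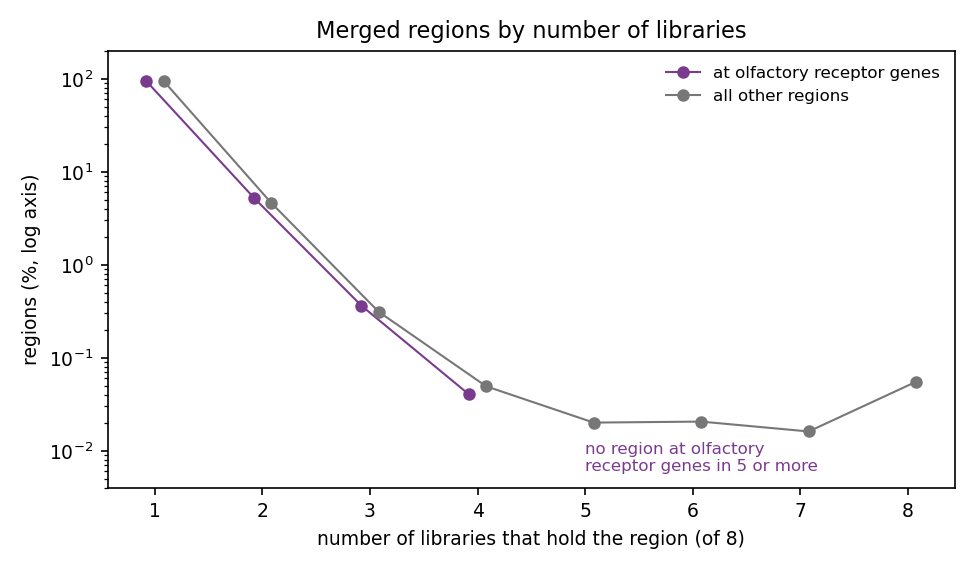
Merged regions at olfactory receptor genes (2473) and elsewhere (402640), as the percentage of each set (y axis, log scale) found in 1 to 8 libraries (x axis). Both sets fall together from 94.3% and 94.9% in 1 library. Only regions elsewhere reach 5 to 8 libraries, each at a share of at most 0.0554%.

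The region found in 4 libraries lay at chr7:108030249-108030439, 856 bp from Olfr478, a class II receptor gene of chromosome 7. Its deposited −log10 p was 4.46, 3.33, 4.95 and 9.33 in sgRosa libraries 1 to 4, with fold enrichments of 2.88, 2.63, 3.03 and 5.15, and no sgNr2f2 library held it in the equal-length lists. In the full lists sgNr2f2 1 held a peak there too, so that the pattern of every sgRosa and no sgNr2f2 library ended. By that pattern 1 of 2473 Olfr regions and 4 of all 405113 regions (0.000987%) were exclusive to sgRosa, and 0 Olfr regions and again 0.000987% of all regions to sgNr2f2. The 9 regions in 3 libraries lay at or near Olfr1212, Olfr943, Olfr774, Olfr1025-ps1, Olfr1029, Olfr283, Olfr1121, Olfr1491 and Olfr1302, and each was held by libraries of both groups. The strongest by mean −log10 p of those in 2 libraries lay near Olfr258-ps1 and Olfr830, again with 1 library of each group. Among the 9 regions in 3 libraries the strongest on average, at chr2:88955203-88955362, 3106 bp from Olfr1212, had a −log10 p of 3.90 in sgRosa 1, 9.33 in sgRosa 4 and 5.02 in sgNr2f2 3.

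sgNr2f2 libraries had fewer peaks at Olfr genes than sgRosa libraries, by a margin that the spread between libraries did not clear. The means were 368 ± 64.0 (SD, n = 4) in sgRosa and 288 ± 52.3 (n = 4) in sgNr2f2, a ratio of 0.782 (two-sided exact permutation test, p = 0.114, where 0.0286 is the smallest p that 4 against 4 allows). The groups overlapped, as sgRosa 3, with 287 peaks, lay below 3 of the 4 sgNr2f2 libraries. In the full lists there were 68.4 ± 11.8 and 54.3 ± 11.2 Olfr peaks per 10000 peaks (exact permutation p = 0.143).

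Some other measures were also lower in sgNr2f2, while peaks at Zfp genes were more numerous, and none of those tested cleared the spread between libraries. Peaks between the genes averaged 298.5 in sgRosa and 254.5 in sgNr2f2 (exact permutation p = 0.229). Peaks at vomeronasal receptor genes averaged 205 and 165 (p = 0.171), and those at Zfp genes 430 and 483 (p = 0.143), in the same permutation test. The share of all peaks in windows of 1 Mb with at most 10 gene starts was 38.7%, 34.8%, 29.9% and 33.8% in sgRosa libraries and 28.4%, 33.2%, 23.5% and 27.9% in sgNr2f2 libraries (means 34.3% and 28.3%, exact permutation p = 0.0571). The libraries with most and fewest Olfr peaks, sgRosa 1 and sgNr2f2 3, were also those with the highest and lowest share. Over all windows the median log2 ratio of sgNr2f2 to sgRosa counts ran from -0.39 in those with 0 to 5 gene starts to 0.27 in those with over 40, and it was -0.17 in the 25 windows with at least 20 Olfr genes. The part of this trend in the Olfr difference was not tested.

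The genes formed 67 clusters, cut where neighbours lay over 500 kb apart: 22 single genes, 28 clusters of 2 to 19 genes and 17 of at least 20, which held 1191 genes (83.9%). All 17 large clusters had peaks, at 11.98 to 26.9 per Mb, or 0.534 to 1.20 times the rest of the genome, whereas 2 single genes and 1 small cluster had none in any library. The chromosome 9 cluster from Olfr24 to Olfr18 was the densest of the 17. The group means were lower in sgNr2f2 in 12 of the 17 and higher in 5.

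**Figure D3:**
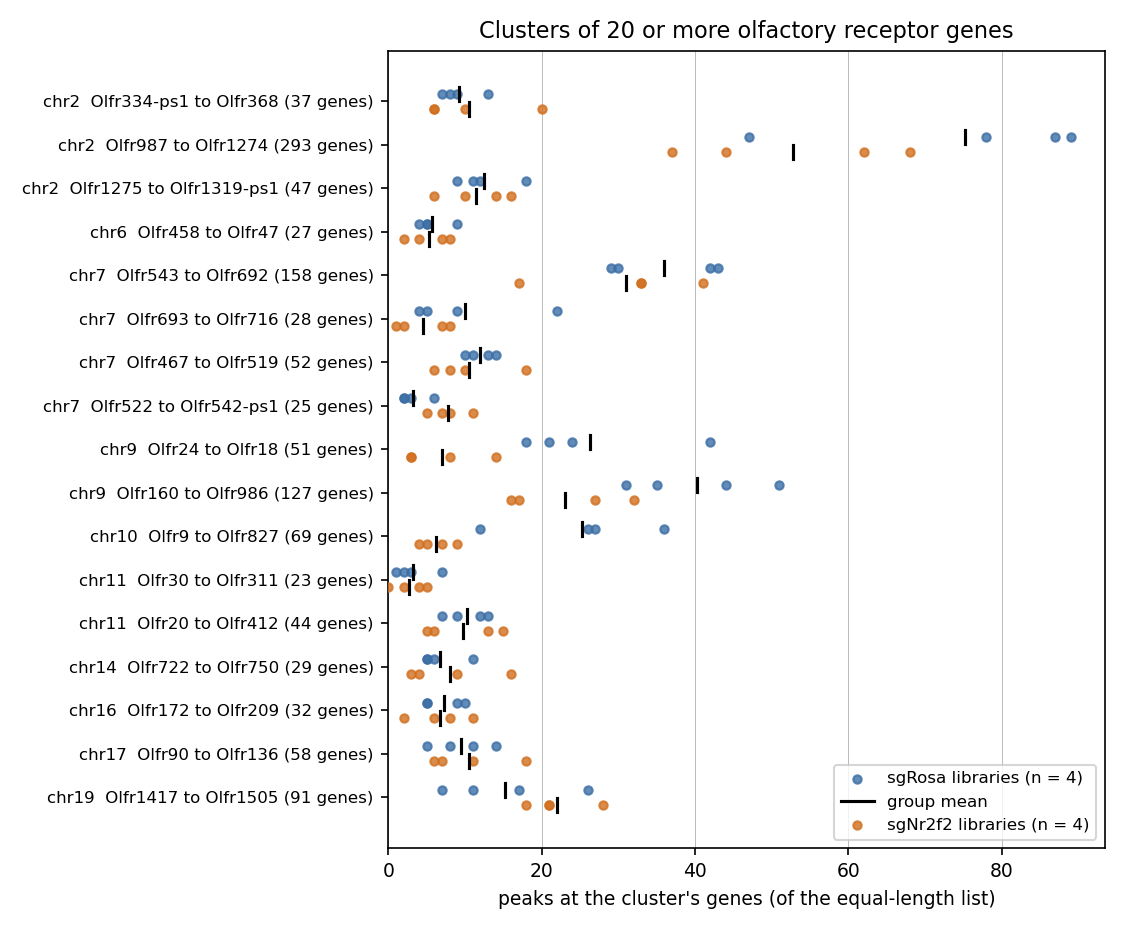
Peaks at the genes of each cluster of at least 20 olfactory receptor genes (x axis, peaks of the equal-length lists; y axis, clusters in genome order) for the 4 sgRosa and 4 sgNr2f2 libraries (points) with group means (black ticks). The groups are apart in the clusters chr9 Olfr24 to Olfr18 and chr10 Olfr9 to Olfr827 and overlap in the other 15.

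In 2 of the 67 clusters every sgNr2f2 library lay below every sgRosa library (2.99%), both among the 17 large ones, and in 0 every sgNr2f2 library lay above. Of all 2381 windows of 1 Mb, 2.94% were apart in the first way and 2.1% in the second. The share over all clusters was near this, but 22 of them are single genes with few peaks, which can hardly be apart. Among the 17 large clusters the share was 11.8%. Of the 25 windows with at least 20 Olfr genes, 1 (4%) was apart, in the first way. Clusters and windows differ in size, so these shares are not a like comparison. Neither cluster passed Benjamini-Hochberg adjustment of the exact permutation test over 67 clusters (adjusted p = 0.957 for both). Leaving out sgRosa libraries 1 to 4 in turn left 3, 3, 5 and 3 clusters apart, and leaving out sgNr2f2 libraries 1 to 4 left 4, 4, 2 and 4, since fewer libraries are more easily apart.

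The first, chr9:18754692-20336094, holds 51 genes from Olfr24 to Olfr18. In order of library number, its genes had 42, 21, 18 and 24 peaks in sgRosa and 3, 8, 3 and 14 in sgNr2f2. All sgNr2f2 values lay below the lowest sgRosa value, with means of 26.3 ± 10.8 and 7 ± 5.23 and a ratio of sgRosa to sgNr2f2 of 3.75 (exact permutation p = 0.0286, the smallest possible). Between the same genes the counts were 39, 24, 14 and 21 against 13, 14, 9 and 12 (exact permutation p = 0.0571), and in the 1 Mb on either side they averaged 50.75 and 44 (p = 0.0571). Relative to those flanks, a measure added after the data were seen, the log2 counts at the genes were -1.14 in sgNr2f2 and 0.67 in sgRosa (difference -1.82, exact permutation p = 0.0286, adjusted p = 0.243 over the 17 large clusters). In the full lists the genes had 4.46 ± 1.87 and 1.69 ± 0.869 peaks per 10000 peaks, a ratio of 2.65, and the groups were again apart.

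The second, chr10:128989914-130211128, holds 69 genes from Olfr9 to Olfr827 and lies near the end of the chromosome. Its genes had 36, 27, 12 and 26 peaks in sgRosa libraries and 4, 9, 5 and 7 in sgNr2f2 libraries. The lowest sgRosa library, with 12, stood closer to the sgNr2f2 range than to the other 3. The means were 25.3 ± 9.91 and 6.25 ± 2.22, a ratio of sgRosa to sgNr2f2 of 4.04 (exact permutation p = 0.0286). Between its genes the means were 13 and 6.75 (exact permutation p = 0.0286, adjusted p = 0.486 over the large clusters), while the flanks had 27 and 27.5. Relative to the flanks the groups overlapped (log2 difference -1.91, exact permutation p = 0.114, adjusted p = 0.324), as they did with tied peaks cut in file order. Among peaks with a q under 0.05 the groups of this cluster overlapped, and those of the chromosome 9 cluster did not.

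**Figure D4:**
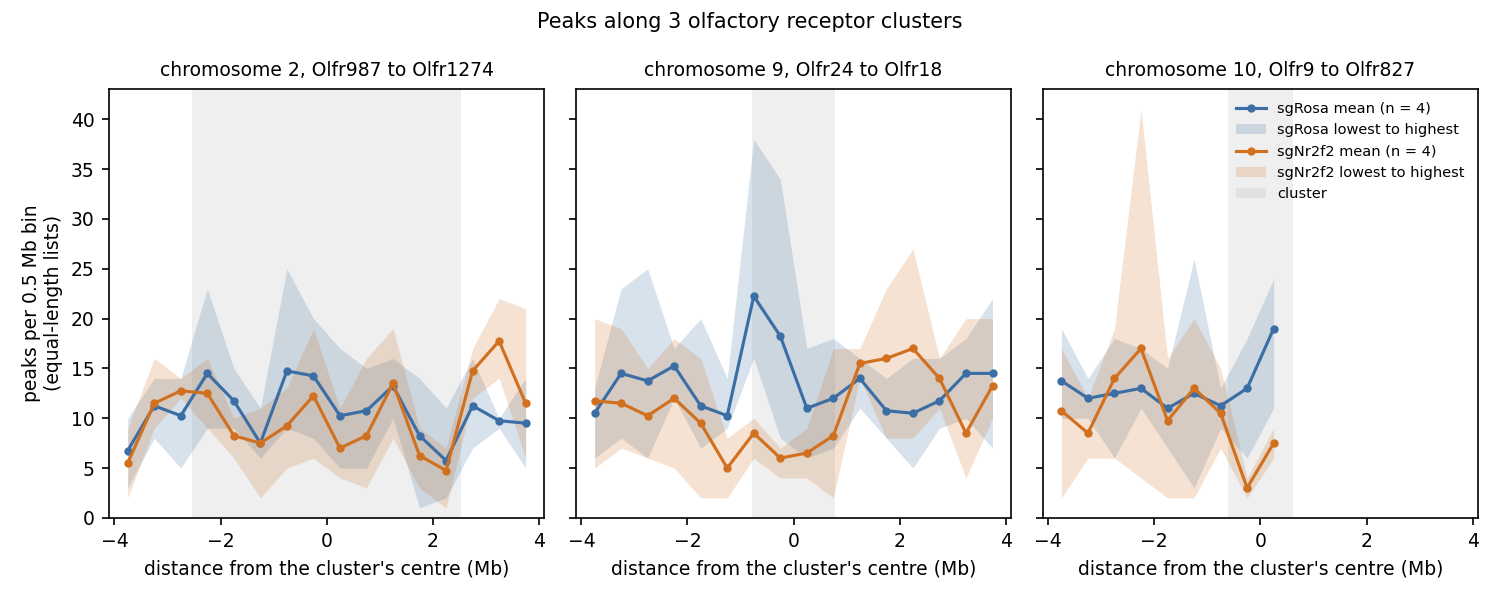
Peaks per 0.5 Mb bin (y axis) by distance from the cluster's centre (x axis, Mb) along the 3 clusters with the largest fall in group mean, as the mean of 4 libraries (lines) and the lowest to highest library (bands); grey marks the cluster. On chromosomes 9 and 10 the sgRosa mean is above the sgNr2f2 mean in all bins inside the cluster, and on chromosome 9 also in the 5 bins to its left. The bands overlap on chromosome 9 in the bins at 0.25 and 0.75 Mb. Inside the larger chromosome 2 cluster the sgRosa mean is above in most bins and the bands overlap. The chromosome 10 panel stops at the last whole bin with peaks.

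These 2 clusters hold 120 genes and gave 51.5 peaks on average in sgRosa and 13.25 in sgNr2f2, which is 47.7% of the difference over the whole family. Adding the other large cluster of chromosome 9 brings the share to 69.2%, and without the 3 the family averaged 276 ± 36.8 peaks in sgRosa and 251.5 ± 43.9 in sgNr2f2. The clusters were picked here for their difference, so no test is given.

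The other clusters with most genes overlapped between groups. The largest, chr2:85330967-90401674, with 293 genes from Olfr987 to Olfr1274, had 89, 87, 47 and 78 peaks in sgRosa and 44, 62, 37 and 68 in sgNr2f2 (exact permutation p = 0.114). The class I cluster, chr7:102476773-105369317, with 158 genes from Olfr543 to Olfr692, had 43, 42, 29 and 30 against 33, 41, 17 and 33 (p = 0.571), in the same permutation test. The other large cluster of chromosome 9, chr9:37711348-40188094, with 127 genes from Olfr160 to Olfr986, had 51, 44, 31 and 35 against 32, 27, 16 and 17 (exact permutation p = 0.0571), so that only sgNr2f2 1 reached the sgRosa range.

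Other clusters ran the other way or level. The chromosome 19 cluster, with 91 genes from Olfr1417 to Olfr1505, had 26, 17, 7 and 11 peaks in sgRosa and 21, 18, 21 and 28 in sgNr2f2 (exact permutation p = 0.2). The chromosome 17 cluster, with 58 genes from Olfr90 to Olfr136, had 8, 11, 5 and 14 against 11, 18, 7 and 6 (p = 0.857), in the same permutation test. Picked after its values were seen, a chromosome 7 cluster of 25 genes from Olfr522 to Olfr542-ps1 had 3, 6, 2 and 2 peaks in sgRosa and 11, 5, 8 and 7 in sgNr2f2. In it the sgNr2f2 mean was 2.38 times the sgRosa mean, with 1 pair of libraries out of order (exact permutation p = 0.0571).

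In the equal-length lists, 1160 of the 1419 genes (81.7%) had a peak in at least 1 library, against 87.7% of all 46709 genes on these chromosomes, and 417 had one in a single library. None had one in all 8 of these lists, as 5.70% of all genes did. Neighbouring Olfr genes can share a peak, and larger genes offer more room: the median Olfr gene was 945 bp long. Olfr804, on chromosome 10, had 1 peak in 7 libraries and none in sgNr2f2 1, but in the full lists it had a peak in all 8, with 1 in sgNr2f2 1 and 2 in sgRosa 4. Olfr183, on chromosome 16, and Olfr1109, on chromosome 2, had peaks in 6 libraries, and Olfr1211, Olfr1280, Olfr1507, Olfr1138, Olfr1139-ps1, Olfr1140 and Olfr976 in 5. Olfr1139-ps1 and Olfr1140 are neighbours with equal counts in all libraries.

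Genes apart between the groups were few. In 5 of 1419 Olfr genes (0.352%) every sgRosa library had more peaks than every sgNr2f2 library, and in 0 the reverse held, against 0.261% and 0.441% of all genes. No gene passed Benjamini-Hochberg adjustment of the exact permutation test (adjusted p = 1). The 5 all had 0 peaks in the 4 sgNr2f2 libraries. Olfr27, in the Olfr160 to Olfr986 cluster, had 2, 3, 2 and 3 peaks in sgRosa libraries, Olfr845 had 1, 2, 1 and 1, and Olfr869 had 2, 1, 1 and 1. Olfr478 and Olfr150 had 1 in each.

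Of these genes 4 are on chromosome 9 and Olfr478 is on chromosome 7. In the full lists sgNr2f2 2 had 1 peak at Olfr27, and sgNr2f2 1 had 1 at Olfr478 and 1 at Olfr150, while Olfr845 and Olfr869 still had none in sgNr2f2. The number of genes apart was 11 with the full lists, 0 among the strongest 26899 peaks per library and 0 among peaks with a q under 0.05. With margins of 2 kb it was 2 and with 10 kb 13. Without sgRosa libraries 1 to 4 in turn it was 15, 13, 17 and 13, and without sgNr2f2 libraries 1 to 4 it was 8, 10, 10 and 7. Fewer libraries are more easily apart at any gene. The share over all genes was taken only in the main setting, so these other counts have no background beside them.

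By presence alone, 43 Olfr genes (3.03%) were found mostly in sgRosa, meaning in 4 libraries against 0 or 1, or in 3 against 0, and 13 (0.916%) mostly in sgNr2f2. Over all genes the shares were 1.65% and 2.53%, in the opposite order. Neighbouring genes share peaks, so these counts are not independent. Of the 43, 14 were among the 179 Olfr genes of chromosome 9 and 10 among the 377 of chromosome 2. Another 7 were among the 294 of chromosome 7, and 6 among the 80 of chromosome 10. None of the 13 was on chromosome 9, an absence that says little among so few genes. Beside the 5 above, the sgRosa side included Olfr1508, Olfr291, Olfr832, Olfr861-ps1 and Olfr554. Olfr861-ps1 had 3, 3, 1 and 0 peaks in sgRosa libraries and none in sgNr2f2 libraries. With the full lists counted, sgNr2f2 1 had 1 peak at Olfr554, which then no longer met the rule.

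On the sgNr2f2 side, Olfr215 had 1, 2, 1 and 1 peaks in sgNr2f2 libraries and 1 in sgRosa 1. Olfr283 had 1, 2, 1 and 1 in sgNr2f2 and 1 in sgRosa 2. Olfr553 and Olfr76 were found in 3 sgNr2f2 libraries and no sgRosa library, as were Olfr547, Olfr557, Olfr1357, Olfr1091-ps1, Olfr61 and Olfr139. Olfr547, Olfr553 and Olfr557 lie in the class I cluster. With the full lists counted, sgRosa 4 had 1 peak at Olfr547, sgRosa 2 had 1 at Olfr557, and sgRosa 1 had 1 at Olfr283.

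Genes that act in receptor choice and odorant signalling were counted in the same way. Of 22 listed, 21 lie on these chromosomes and all 21 had a peak in at least 1 library, as did 87.7% of all genes. Their peaks summed to 47 ± 4.83 in sgRosa and 41.75 ± 6.60 in sgNr2f2 (exact permutation p = 0.343). In 0 of 21 were the groups apart. Over all genes the shares were 0.261% lower and 0.441% higher in sgNr2f2, so this absence says little. Peaks were found in all 8 libraries at the calcium-activated chloride channel gene Ano2, the channel subunit gene Cngb1, the chaperone gene Ric8b, the transcription factor genes Ebf1 and Ebf2 and the adenylyl cyclase gene Adcy3. These genes are much longer than Olfr genes, which adds to their counts.

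The neuron label was checked against marker genes in the equal-length lists. All 10 neuronal markers had a peak, with 47.3 ± 9.18 in sgRosa and 34.3 ± 10.1 in sgNr2f2 (exact permutation p = 0.171). The lower sum came from Syt1, a synaptic vesicle protein gene (22.75 and 10.5 on average), and Map2, a dendritic protein gene (6.5 and 2.5), while Snap25, Slc17a7, Gad1, Gad2, Slc32a1 and Rbfox3 had higher means in sgNr2f2. All 7 counted markers of olfactory sensory neurons had one too (19.3 ± 5.06 and 17.3 ± 6.70, p = 0.657 in the same permutation test), with 1 to 2 peaks at Omp, the protein that marks mature cells of that type, in the libraries that had any. Astrocyte markers gave 4.75 ± 2.06 and 10.5 ± 4.51 (exact permutation p = 0.0571), oligodendrocyte markers 3.5 and 5.75, microglial markers 2.25 and 3, and vascular markers 5 and 5.75. Each counted marker of these types had a peak in at least 1 library as well, as did 87.7% of all genes, so presence of a peak does not tell the cell types apart. These marker counts moved between the groups beside the Olfr counts, and their part in the Olfr difference was not tested.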

How the data were processed

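ATAC-seq peak lists of 8 libraries, 1 per sample, were used, with groups and replicate numbers from the sample titles. Each was taken as 1 mouse, as the labels describe 4 mice per group. The authors called peaks per library in mm10, and MACS2 2.2.9.1, HOMER 4.10, DiffBind 3.10.0, Picard, fastp 0.23.2, MultiQC 1.11 and FastQC 0.11.9 are listed in the submitters' processing notes. The aligner, the handling of duplicates, the shift of Tn5 cuts and the calling options are not given in the sources used here. Each deposited line holds the authors' integer score (not used), the fold enrichment as a ratio over background, and −log10 p and −log10 q. The summit offset is deposited in bases. No deposited −log10 p was below 2.00, and the share of peaks with a q under 0.05 ran from 4.80% to 18.6% per library. Read depth is unknown, so that precision rests on the number of libraries.

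On chromosomes 1 to 19, an interval listed with several summits was kept once, at its strongest summit (3465 lines dropped). Genes came from the RefSeq table of GRCm38.p6. Of 1428 Olfr symbols, 8 on chromosome X and 1 with no place on a main chromosome sequence were left out. The strongest 53799 peaks per library were compared. The files list equal −log10 p by chromosome name, so that cutting in file order drops the tied peaks of chromosomes 7 to 9 first, and ties were therefore ordered at random with a fixed seed. Overlaps of at least 1 bp joined peaks into regions. Group tests were exact permutations, two-sided, over 70 assignments, and contrasts within libraries used exact sign flips over 8 libraries, with Benjamini-Hochberg adjustment. Log2 ratios used 1 added count for windows and 0.5 for flanks.

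The members, lists and alternatives were chosen with earlier results of these data known. Clusters named are the 6 with most genes, class I and any with groups apart. Genes named are the 10 detected in most libraries, any with groups apart and up to 10 per direction found mostly in 1 group. Regions named are the 12 in most libraries, with ties by mean −log10 p. Alternatives were the full lists, the strongest 26899 peaks, order by fold enrichment, a q under 0.05, margins of 2 and 10 kb, cluster gaps of 250 and 1000 kb, coding genes only, overlap of 0.5 of the shorter peak, no regions of all 8 libraries, each library left out, and a replicate block. Added after the data were seen were 2 other orders of ties, counts relative to flanks, and the count without the clusters whose groups were apart. Calculations were tested on simulated data with planted differences. The tools were scipy 1.17.1, pandas 2.3.3, numpy 2.4.6, matplotlib 3.10.9 and Python 3.11.15.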

Additional observations from a re-analysis of the deposited data

Results flagged for a closer look

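The median fold enrichment of peaks at Olfr genes was 3.03 in sgRosa 4, against 2.69, 2.64 and 2.65 in the other sgRosa libraries, a gap to the nearest of 0.869 of the group's whole range. The other peaks of sgRosa 4 had the same median of 3.03, and this library also has the longest list. It was the only value singled out among 34 groups of 4 libraries, where chance singles out about 1 in 20.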

How the results depend on the processing

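Of 190 alternative values, 137 were classed as unchanged. For tested results this means the same direction and call. For numbers of clusters, genes or regions, which have no test, it means only a number near the main one, whichever the members. The lower Olfr count in sgNr2f2 kept its sign in each alternative that measured it and missed the threshold wherever it was tested. It ran from -107 to -55.25 peaks with 1 library left out. The titles do not say whether replicate numbers pair the libraries, and correlations between same-numbered libraries (0.0942, 0.0515, 0.208 and -0.146) do not settle it. With a replicate block the difference was -80.25, with all 4 pairs lower in sgNr2f2 (exact sign-flip p = 0.125, the smallest that 4 pairs allow). The excess over vomeronasal receptor genes was 1.78 peaks per Mb with the strongest 26899 peaks, 4.90 with 10 kb margins and -0.524 at a q under 0.05. With 1 library left out it was 5.0 to 5.86 (exact sign-flip test, adjusted p = 0.0547 each, with the sign kept in all 7 libraries). With only this contrast and the next at the smallest exact p that 7 libraries allow, the adjusted p could not fall lower. Most of the 21 values that kept their sign but lost their call came from such sets of 7 libraries. The excess at genes over the DNA between them was 2.16 with the strongest 26899 peaks, 3.71 with 10 kb margins, 3.79 with gaps of 1000 kb and 3.71 to 4.79 with 1 library left out. Differences per Mb from the strongest 26899 peaks or at a q under 0.05 are not on the main scale, since list length changes all densities. The difference from Zfp genes was -2.01 peaks per Mb at a q under 0.05 (exact sign-flip test, adjusted p = 0.0182). The ratio to the rest was 1.04 with 2 kb margins and 0.915 to 1.01 with 1 library left out. The difference in peaks found again was 2.39 points in full lists, -0.469 with the strongest 26899 peaks, -5.86 at a q under 0.05, -0.687 with an overlap of 0.5 of the shorter peak and -0.579 to 1.13 with 1 library left out. Clusters apart numbered 1 at a q under 0.05, 1 with ties in file order and 2 to 5 with 1 library left out. The chromosome 9 cluster Olfr24 to Olfr18 was apart in 18 of 18 settings on the same clusters, the main one included, and the chromosome 10 cluster in 15. The groups of the latter overlapped at a q under 0.05, with ties in file order and relative to the flanks. Most of these settings could not end the pattern, since groups that are apart stay apart when a library is left out. The overlap of 0.5 and the removal of regions shared by all libraries left the cluster counts unchanged. Genes apart numbered 11 in full lists, 0 with the strongest 26899 peaks, 0 at a q under 0.05, 2 with 2 kb, 13 with 10 kb and 7 to 17 with 1 library left out. The share over all genes was not taken in these settings. The 1 region exclusive to sgRosa became 0 in full lists, the strongest 26899 peaks and at a q under 0.05. The causes were not tested.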

Other observations

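The 8 Olfr genes on chromosome X had 1 peak in sgRosa 2, 1 in sgRosa 4 and 0 in the other 6 libraries of the full lists, where chromosome X as a whole held from 49 peaks in sgNr2f2 3 to 896 in sgRosa 4.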
